A study of Mus musculus with 2 samples.

Results

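A set of 10 genes of bile acid synthesis was examined in liver RNA of a control and an irradiated mouse sample: the enzyme genes Cyp7a1, Cyp8b1, Cyp27a1, Cyp7b1, Hsd3b7, Akr1d1, Baat and Slc27a5, and the regulator genes Nr1h4 and Nr0b2. They were chosen by name as known parts of the pathway, out of 22180 genes with a probe set annotated with exactly 1 gene symbol. Earlier results of these data were known when they were chosen. Each of the 10 had 1 such probe set, and 0 probe sets with several symbols held any of them. The control group was 1 liver sample from male C57BL/6 mice at 9 weeks of age that had received no treatment. The irradiated group was 1 liver sample of the same strain, sex and age, taken 5 weeks after the mice had been exposed once, at 4 weeks of age, to 6 Gy of gamma rays over the whole body. Per the labels' protocols, the dose rate was 0.81 Gy per minute and the mice were anesthetized in the irradiation chamber. The labels do not say whether the control was anesthetized, whether an RNA came from 1 mouse or a pool, or at what time of day tissue was taken. With 1 array per group no difference below has a replicate check, and no p-value was computed.

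Bile acids are made from cholesterol in hepatocytes, and they both dissolve dietary fat and act as hormones. In the neutral pathway CYP7A1 carries out the first and rate-limiting step on the sterol ring. In the acidic pathway CYP27A1 first oxidises the side chain and CYP7B1 then hydroxylates the ring. HSD3B7 and AKR1D1 modify the ring in both pathways, and CYP8B1 directs the product towards cholic acid. SLC27A5 and BAAT then join the acid to coenzyme A and to taurine or glycine. Bile acids bind the nuclear receptor FXR, the product of Nr1h4. FXR induces SHP, the product of Nr0b2, a receptor with no DNA-binding domain of its own that represses Cyp7a1 and Cyp8b1.

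Nr0b2 was the 1 gene of the 10 with a large difference. On the log2 scale of the deposited values it read 11.07 in the control and 9.91 in the irradiated sample. The irradiated value was lower by a log2 difference of -1.16, which is 2.24-fold lower, or 44.7% of the control level. Expressed genes were the 13689 whose higher value reached 6.06, the median of all deposited values, and among them Nr0b2 had the 20th lowest difference. Nr1h4, which encodes the receptor that induces it, read 10.54 on both arrays. The difference of Nr1h4 was -0.00 as deposited and changed sign under quantile and loess scaling, at 0.00 in both. In a bulk sample, fewer cells of a type and less RNA per cell cannot be told apart.

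The ring-modifying enzymes came next, and all 3 were lower on the irradiated array. Hsd3b7 read 11.48 in the control and 11.09 in the irradiated sample, a difference of -0.39 or 1.31-fold lower. Cyp8b1 read 11.10 and 10.72, a difference of -0.38, or 76.8% of the control level. Both genes lay just outside the central 95% of differences of expressed genes, which ran from -0.37 to 0.42. Akr1d1 read 10.76 and 10.52, a difference of -0.24 that lay inside that range.

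The first steps of the neutral and the acidic pathway differed in sign. Cyp7a1 read 12.79 in the control and 12.56 in the irradiated sample, a difference of -0.23, or 85.0% of the control level. Cyp27a1 read 12.30 and 12.35, a difference of 0.05. Cyp7b1, the later enzyme of the acidic pathway, read 11.51 and 11.71, and its difference of 0.19 was the highest of the 10. On the log2 scale the difference of Cyp7b1 was 0.43 above that of Cyp7a1. Cyp7a1, Cyp27a1 and Cyp7b1 all lay inside the central range, so each was no farther from 0 than many other expressed genes.

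The conjugating enzymes had the smallest differences of the enzyme genes besides Cyp27a1. Slc27a5, the bile acid CoA ligase gene, read 12.18 in the control and 12.13 in the irradiated sample, a difference of -0.05. Baat, the acyltransferase gene, read 10.80 and 10.89, a difference of 0.09. Including Cyp27a1 and Nr1h4, 4 of the 10 genes were within 0.1 log2 units of 0.

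**Figure D1:**
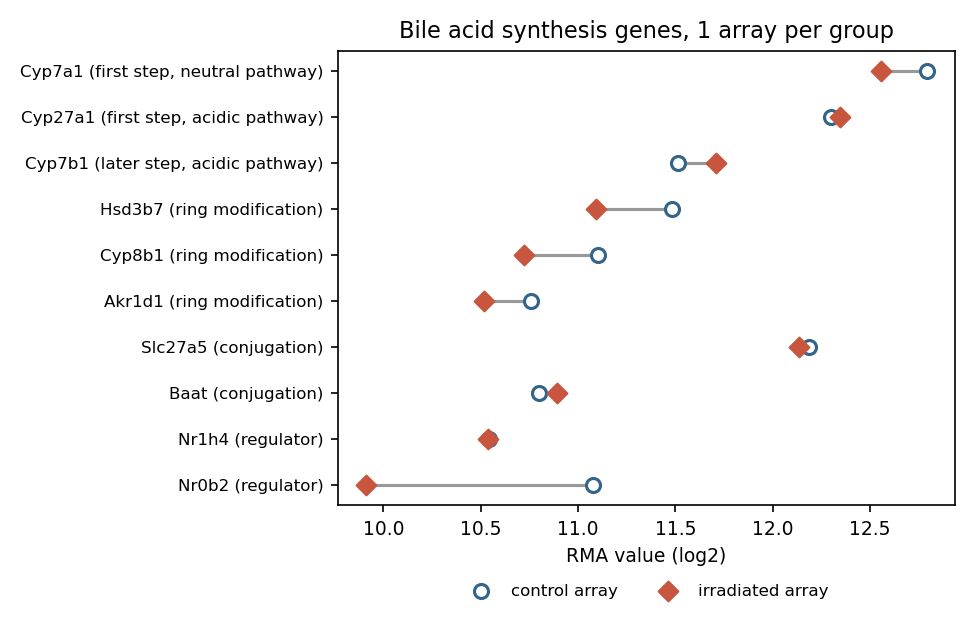
The log2 RMA value of each of the 10 genes on the control array (open circles) and the irradiated array (filled diamonds), 1 array per group, with a grey line joining both values of a gene and its step in parentheses. Nr0b2 has the longest line, from 11.07 to 9.91, and the symbols of Nr1h4 coincide; levels of different genes come from different probes and are not to be compared.

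Counted by size, 1 of the 10 genes (Nr0b2) was at least 1.5-fold lower, where 0.650% of all expressed genes were. It was also at least 2-fold lower, where 0.183% of expressed genes were. None of the 10 was at least 1.5-fold higher, where 1.14% of expressed genes were. At a smaller size of 0.32 log2 units, 3 were lower by at least as much (Nr0b2, Hsd3b7 and Cyp8b1), where 3.75% of expressed genes were, and 0 were higher, where 4.65% were. In all, 7 of the 10 were below 0 as deposited and 6 under quantile or loess scaling, where 50.3% of expressed genes were below 0 as deposited. The median of the 10 was -0.14, beside -0.00 over all expressed genes. Over the 8 enzyme genes alone the median was also -0.14, with 5 below 0 and 3 above. As the 10 genes were chosen with earlier results of these data known, these counts are a description.

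All 10 genes were far above the expression floor on both arrays, with values from 9.91 to 12.79, and differences of highly expressed genes spread less. Nr0b2 had the lowest mean of the 10, at 10.49. A second background, chosen after the values were seen, was therefore the 1377 expressed genes with a mean of at least 10.49. Their central 95% ran from -0.33 to 0.22. Lower by at least 0.32 were 2.61% of them and at least 1.5-fold lower 0.581%, while 56.0% were below 0. Nr0b2 was the second lowest of the 1377, after the small nucleolar RNA gene Snord89 at -2.13. Hsd3b7 had the 21st lowest difference and Cyp8b1 the 23rd, Akr1d1 the 78th and Cyp7a1 the 89th. Cyp7b1 had the 50th highest and lay inside the central range, as did Akr1d1 and Cyp7a1.

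**Figure D2:**
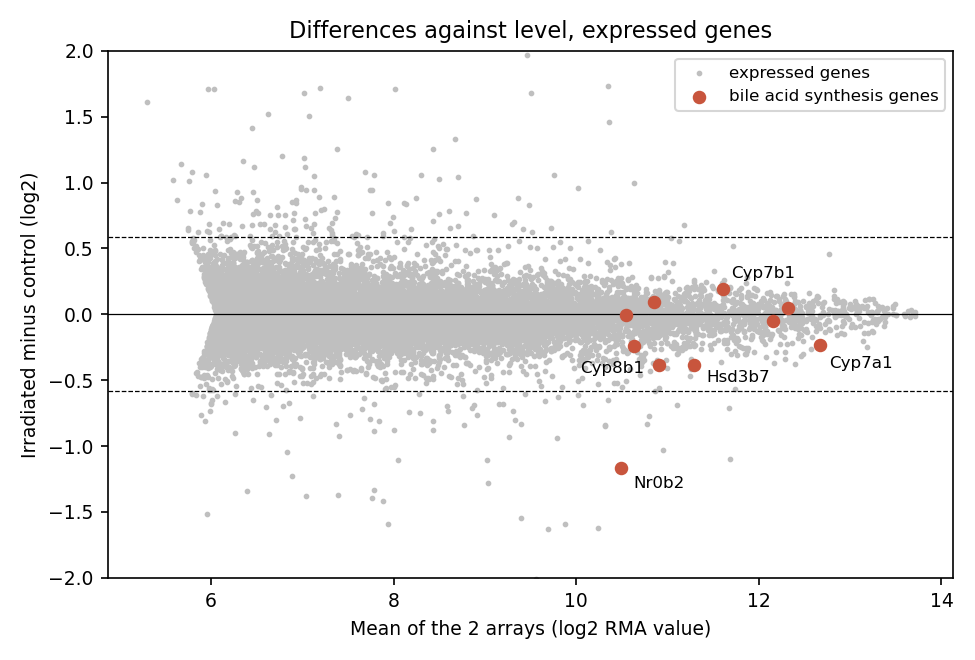
The irradiated minus control log2 difference of 13689 expressed genes (grey) against the mean of both arrays on the log2 scale, with the 10 bile acid synthesis genes in red and dashed lines at 1.5-fold; 15 genes with differences beyond 2 log2 units lie outside the axis. Nr0b2 lies below the lower line at -1.16, and Hsd3b7 and Cyp8b1 lie at the lower edge of the genes of like level.

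The promoters of the 3 genes with the largest differences are shown because FXR, SHP and their partners act on bile acid genes through DNA near the start site. RefSeq sequences of assembly GRCm38.p6 were held for 6 of the 10 genes and not for Cyp7a1, Cyp7b1, Baat and Slc27a5. Each sequence runs from 250 bases before to 50 bases after the annotated start, in the direction of transcription, and capitals mark letters matched by any of 5 motifs searched on both strands. Nr0b2 lies on the plus strand at chr4:133553126-133553425, Hsd3b7 on the plus strand at chr7:127800359-127800658 and Cyp8b1 on the minus strand at chr9:121916256-121916555.
Nr0b2: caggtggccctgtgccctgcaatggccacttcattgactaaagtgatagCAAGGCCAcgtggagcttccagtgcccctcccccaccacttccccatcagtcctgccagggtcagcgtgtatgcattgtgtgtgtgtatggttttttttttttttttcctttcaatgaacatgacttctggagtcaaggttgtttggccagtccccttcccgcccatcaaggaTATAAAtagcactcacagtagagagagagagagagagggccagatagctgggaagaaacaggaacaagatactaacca
Hsd3b7: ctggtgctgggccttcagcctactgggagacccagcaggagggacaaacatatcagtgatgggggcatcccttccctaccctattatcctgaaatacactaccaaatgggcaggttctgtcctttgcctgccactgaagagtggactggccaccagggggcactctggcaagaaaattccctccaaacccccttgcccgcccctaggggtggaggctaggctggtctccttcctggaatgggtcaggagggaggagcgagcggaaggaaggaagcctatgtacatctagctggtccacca
Cyp8b1: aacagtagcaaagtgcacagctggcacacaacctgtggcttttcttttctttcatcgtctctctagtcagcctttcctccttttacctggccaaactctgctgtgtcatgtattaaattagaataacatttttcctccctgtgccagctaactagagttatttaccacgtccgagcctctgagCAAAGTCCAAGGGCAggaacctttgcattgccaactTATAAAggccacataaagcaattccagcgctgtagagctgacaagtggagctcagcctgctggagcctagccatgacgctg

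The motif CAAGGNCA is bound by NR5A receptors such as LRH-1, a partner through which SHP acts on Cyp7a1 and Cyp8b1. It was found in the Nr0b2 promoter as CAAGGCCA, from 201 to 194 bases before the start, and in the Cyp8b1 promoter as CAAGGGCA, from 60 to 53 bases before it. Of all 32851 promoters of this length, 6.71% held it. The HNF4 motif CAAAGTCCA was found in the Cyp8b1 promoter, from 67 to 59 bases before the start and overlapping the NR5A motif, and in 0.475% of all promoters. The TATA box letters TATAAA were found in the Nr0b2 and Cyp8b1 promoters and in 13.6% of all. The nuclear receptor core AGGTCA, which CAAGGNCA contains when N is T, was found in the promoters of Akr1d1 and Nr1h4 and in 16.3% of all. The inverted repeat AGGTCANTGACCT, the form that FXR binds with RXR and which holds the core on both strands, was in 0 of the 6 and in 0.00913% of all. With 3 of 32851 promoters holding it, its absence from the 6 was near certain beforehand. Inexact forms and sites outside the window were not searched, so the absence does not show that a gene lacks an FXR site. No motif of the 5 was found in the Hsd3b7 window. A match is a description of letters and was not measured as binding here.

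The other genes of the pathway came from lists drawn up with earlier results of these data known. Of 16 further synthesis genes 14 were expressed, with a median of -0.03, 7 below 0 and 7 above, and 0 at least 1.5-fold different in either direction. That median turned positive (0.01) with no filter or with the probe set of largest difference, and the mean of the list was also 0.01. Among genes of side chain shortening in peroxisomes, the oxidase gene Acox2 was at -0.07 and the racemase gene Amacr, the lowest of the list, at -0.19. The CoA ligase gene Slc27a2 was at -0.14, and its second probe set, which lay below the floor on both arrays, at -0.25. Cyp2c70, which makes muricholic acids in mice, was at -0.07. The largest difference of the list, named after the values were seen, was that of Cyp39a1, an oxysterol hydroxylase gene like Cyp7b1, which read 10.21 in the control and 10.64 in the irradiated sample. Its difference of 0.43 was 1.35-fold higher.

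Regulators of synthesis had a median of -0.03 over 17 expressed genes of 18, with 12 below 0, and 0 were at least 1.5-fold different. The FXR partner gene Rxra was at -0.01, the LRH-1 gene Nr5a2 at -0.08 and the hepatocyte factor gene Hnf4a at -0.02. Gut bile acids also repress Cyp7a1 through the hormone FGF15, which acts on hepatocytes through FGFR4 and its co-receptor beta-Klotho. Fgfr4 was at 0.07 and Klb, the beta-Klotho gene, at -0.21. Fgf15 itself, a gene of the ileum, read 6.08 in the control and 5.84 in the irradiated sample, just above and below the floor of 6.06. Its second probe set lay below the floor on both arrays. Fgf15 is among the 12 below 0, and as it reached the floor only on the control array, the filter fixed its sign. Prox1, a corepressor gene named after the values were seen, had the largest difference of the list at -0.35.

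Among bile acid transporter genes 15 of 18 were expressed, with 8 below 0 and 7 above and a median of -0.03, which was positive (0.02) with no filter. Slco1a4, an organic anion uptake transporter gene, was the 1 member at least 1.5-fold lower. It read 9.98 in the control and 9.32 in the irradiated sample, and its near relative Slco1a1, whose probes could cross-hybridise, differed by 0.09. The main uptake transporter gene Slc10a1 was at -0.14 and the bile salt export pump gene Abcb11 at -0.16. Abcg8, which encodes part of a sterol exporter, was at -0.48, and its partner gene Abcg5 at -0.22. In the other direction, the bile acid uptake gene Slc10a2 was at 0.45 and the phospholipid flippase gene Atp8b1 at 0.23. These 4 genes were named after the values were seen.

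FXR targets other than Nr0b2 had a median of -0.02 over 11 expressed genes of 14, with 7 below 0 and 0 at least 1.5-fold different in either direction. Of the 7, Fgf15 reached the floor only on the control array, so the filter fixed its sign. Abcb11 and the phospholipid transporter gene Abcb4 (0.09), both induced by FXR, differed in sign. The difference of Nr0b2 lay below all 11, whose lowest was -0.28. Lowest of the list were Apoc2 and Pltp, both at -0.28, and highest was Slc10a2 at 0.45, named after the values were seen. Slc10a2 and Fgf15 were also on the list of ileal enterocyte markers. The FXR target list was not split by the direction in which FXR acts on each gene. Its median and counts are thus no measure of FXR activity. Genes of cholesterol supply had a median of 0.08 over 11 expressed genes of 16, with 3 below 0, 7 above and 0 past 1.5-fold. The squalene epoxidase gene Sqle was highest of that list at 0.56, and the synthase gene Hmgcs1 (-0.27) and the lipoprotein receptor gene Scarb1 (-0.22) were lowest. These 3 genes were named after the values were seen.

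Cyp7a1 and Nr0b2 transcripts cycle over the day in mouse liver, so genes of the clock were read beside them. Of 14 listed, 13 were expressed, with a median of -0.11 and a mean of -0.01. Their differences ran from -0.54 to 0.61, with 7 below 0 and 6 above. Neither summary therefore shows that clock genes were alike on both arrays. Npas2 (0.38), among the 6, reached the floor only on the irradiated array. Dbp, a clock output factor that activates Cyp7a1, read 10.90 in the control and 10.51 in the irradiated sample, a difference of -0.39. Arntl, a clock activator gene, was the 1 member at least 1.5-fold different, at 0.61. Nr1d1, a clock repressor gene named after the values were seen, was at -0.54. The part of time of day in the difference of Nr0b2 was not tested.

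**Figure D3:**
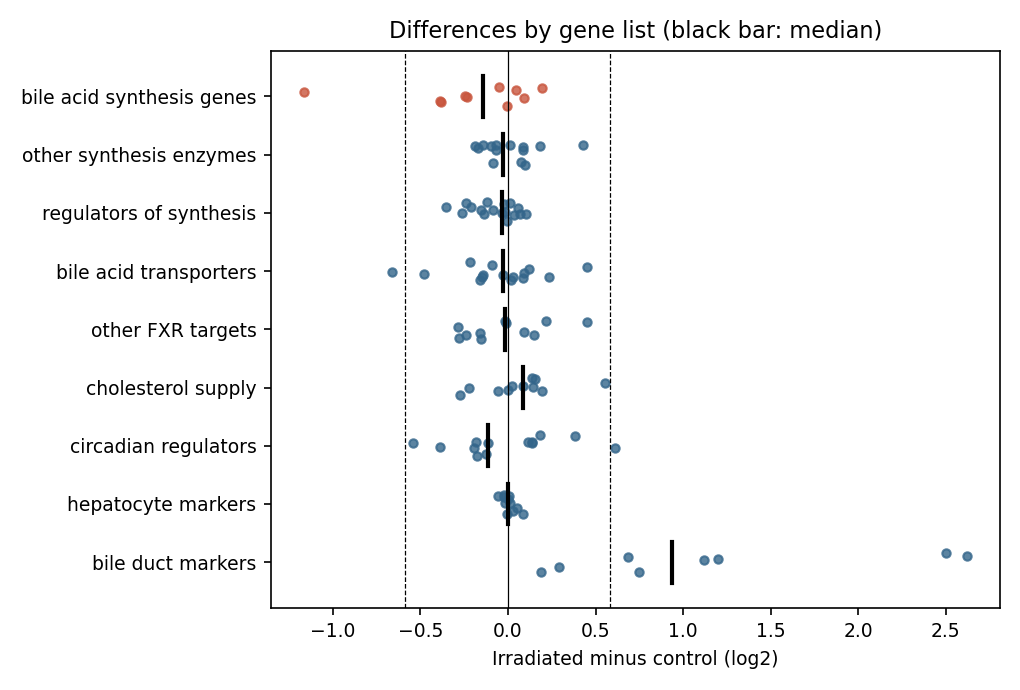
Irradiated minus control log2 differences of expressed genes by list, 1 dot per gene with vertical scatter added for legibility, a black bar at each median and dashed lines at 1.5-fold; some genes are in more than 1 list. The 10 bile acid synthesis genes (red) have a median of -0.14 and hepatocyte markers 0.00, while all 8 expressed bile duct markers lie above 0.

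Hepatocyte identity was checked against its markers, which were high on both arrays. Of 12 listed 11 were measured, with a median of 0.00 and differences from -0.05 to 0.08, and Alb, the albumin gene, read 13.68 and 13.70. Several of these probe sets read near the highest values of the arrays, 13.87 and 13.91, where a difference could be compressed, so the small differences do not show that the share of hepatocytes was equal. Bile duct markers differed in the opposite direction from Nr0b2. Of 9 measured, 8 were expressed, all 8 were higher and 6 were at least 1.5-fold higher, where 1.14% of all expressed genes were. As this list too was drawn up with earlier results of these data known, these counts are a description. The median of the 8 was 0.93, with the duct keratin gene Krt19 at 1.20. Krt19 read 6.18 in the control, just above the floor of 6.06, and 7.37 in the irradiated sample. The size was uneven within the list. Krt7 was at 0.29 and Sox9 at 0.19, both short of 1.5-fold and named after the values were seen. The summed linear level of the 9 probe sets was 833 in the control and 2266 in the irradiated sample. Cd24a (7.23 and 9.73) and Muc1 (6.21 and 8.83) read highest of the 9 on the irradiated array and weigh most in its sum. The chloride channel gene Cftr was below the floor on both arrays, at 4.32 and 4.76. The other cell type lists had medians closer to 0. Of 8 stellate cell markers 7 were above 0 and 2 at least 1.5-fold higher, Acta2 at 1.97 and Des at 0.95, both also smooth muscle genes, with a median of 0.16. Of 7 Kupffer cell markers 6 were above 0, with a median of 0.11 and 0 past 1.5-fold. Of 8 expressed markers of ileal enterocytes 5 were above 0, with a median of 0.06 and the lectin gene Lgals4 at 1.06 as the 1 member past 1.5-fold. Of the 8, Vil1 and Cdx2 reached the floor only on the irradiated array and Fgf15 only on the control array. The filter thus fixed the signs of these genes. The 7 markers of sinusoidal endothelium had a median of -0.09, with 3 above 0 and 0 past 1.5-fold. The part of bile duct or other cells in the differences above was not tested.

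By a rule of distance, the genes whose values lay nearest to those of Nr0b2 on both arrays were Inhbe, Ptcd3 and Lhpp. The distance was Euclidean over the control and irradiated log2 values, 2 points per gene, and predicted genes and small RNA genes were left out. Inhbe, which encodes an activin subunit made in liver, was 0.34 away and differed by -0.85. Ptcd3, which encodes a mitochondrial ribosomal protein, was 0.34 away and differed by -0.84. Lhpp, a phosphatase gene, was 0.43 away and differed by -0.55. The distance rests on levels of different probes, and nearness to Nr0b2 itself favours genes that were lower, so with 2 arrays it is a description and no measure of co-regulation.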

How the data were processed

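The deposited table held log2 values of 41345 probe sets on 2 arrays, made by the authors with RMA in Affymetrix Expression Console 1.3.1, per the submitters' processing notes. RMA corrects background, normalizes arrays to each other and summarises probes. The log2 base was read from the range, 1.46 to 13.9. Such normalization hides a change in total RNA per cell. Per the labels' protocols, 300 ng of column-purified total RNA was labelled. For the genome build of the array, the sources used here give nothing.

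Gene names came from GEO's platform annotation, where 23521 probe sets had exactly 1 symbol; of several for a gene, that of highest mean was kept. Differences are irradiated minus control, computed in Python 3.11.15 with pandas 2.3.3 and, for loess (span 0.3), statsmodels 0.14.6. The scripts were tested on simulated arrays. The number of arrays limits the precision.

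The 10 genes and all lists were chosen with earlier results of these data known. Named were the 10 genes, up to 4 expressed genes per pathway list that were farthest from 0 and past 1.5-fold, genes fixed by name and the 3 most like Nr0b2. Of the genes fixed by name, those with no probe set of their own are not analysed here. Any other gene was named after its values were seen.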

Additional observations from a re-analysis of the deposited data

How the results depend on the processing

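The alternatives were median centring, quantile and loess scaling, another choice among probe sets, no filter, a floor at the 75th percentile, values below the floor set to it, 32 added on the linear scale, other sizes and means. Of 191 alternative values 190 stayed within 0.1 log2 units, or within 1.5 times for counts. The exception was the count of genes at least 1.5-fold lower, which was 3 at the smaller size of 0.32 log2 units, by construction. Differences of the 10 genes moved by at most 0.026, Nr0b2 staying between -1.18 and -1.14. All 10 have 1 probe set well above the floor, so filters and probe set choices could not move them. No paired analysis was possible because there was 1 array in each group.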
